A study of Mus musculus with 6 samples.

Results

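Glutamate, GABA and glycine are the fast transmitters of the retina, and the genes described here encode 39 subunits of their receptors, chosen by name from the AMPA, NMDA, kainate, delta and metabotropic glutamate receptors, the GABA-A, GABA-A rho and GABA-B receptors and the glycine receptors. Of these, 37 had a probe set naming that gene alone on the array, out of 18193 genes so named. They were read by 80 probe sets, each a group of short probes that gives 1 value per retina. Grin1 and Gabbr2, the obligatory partners of NMDA and GABA-B receptors, were not analysed here, nor were other subunits of these families outside the 39.

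Messenger RNA was measured on Affymetrix arrays, 1 whole retina per array, in female mice of the inbred strain DBA/2J, which develops raised intraocular pressure and glaucoma with age. The comparison was between 3 retinas of 8-month-old mice with elevated pressure and 3 of 3-month-old mice with normal pressure, all from separate animals. The last pressure was 17.5 ± 1.99 mmHg in the younger eyes and 27.4 ± 2.67 mmHg in the older ones (SD, n = 3 each), so age and pressure cannot be told apart. The younger retinas and 8-month retina 1 were left ones, while 8-month retinas 2 and 3 were right ones.

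Photoreceptors and bipolar cells release glutamate, and amacrine and horizontal cells supply most of the inhibition by GABA and glycine. AMPA and kainate receptors are glutamate-gated cation channels that carry the fast signal into OFF bipolar, horizontal, amacrine and ganglion cells, and NMDA receptors add a slower, calcium-rich current in inner retinal cells. Metabotropic glutamate receptors and GABA-B receptors act through G proteins, whereas GABA-A and glycine receptors are chloride channels.

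Most marker genes of retinal cells passed the filter described next, which asks for 3 of 6 values. They were 8 of 8 rod, 6 of 8 bipolar, 7 of 9 amacrine, 3 of 4 horizontal, 9 of 10 ganglion cell and 7 of 7 Müller glia genes. Lens material differed between single retinas. Undoing the log and summing 7 lens genes gave 32610 for the younger retina 3 and 17560 for the older retina 1, with 145.3 to 954.4 in the other 4. By the same sum, 4 endothelial genes lay lower at 8 months (167.4 to 171.9 against 212.6 to 229.5) and 5 genes of microglia and macrophages higher (772.2 to 1000 against 507.8 to 530.3), and 7 of 8 rod genes had a lower mean. All 5 astrocyte and gliosis genes had a higher mean at 8 months, with a median log2 difference of 0.64. Of these, Osmr read 3.95, 3.85 and 4.01 in the younger retinas and passed the filter through the older ones. The brightest Vim probe set differed by only 0.05, and another bright one by -0.03. The sum over 5 pigment epithelium genes varied from 878.4 to 2176 among the younger and from 1108 to 1671 among the older retinas. The part of these cells in the receptor values was not tested. Results were therefore also computed without those 2 lens-rich retinas.

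A probe set was counted as measured where at least 3 of its 6 values reached 4 on the log2 scale. That held for 47 of the 80 receptor probe sets and 31 of the 39 genes. All 4 AMPA, all 5 kainate and both rho subunits were measured, as were 3 of 6 NMDA, 5 of 6 metabotropic, 7 of 9 GABA-A and 3 of 4 glycine receptor subunits, besides Grid1 and Gabbr1. Grin2a, Grin2c, Grm2, Gabra5, Gabrg3 and Glra1 had no probe set above the filter. Glra1, the alpha subunit of adult glycine receptors in the spinal cord, came nearest, with a highest value of 4.01. The filter was close for Grm3 and Grin3a, whose value at rank 3 was 4.04 and 4.07, and for Glra1 and a Grin2b probe set, where it was 3.88 and 3.80. The 33 probe sets left out read between 2.24 and 4.06, and 11 of them varied by less than 0.1 over all retinas. The lowest value of the whole table was 2.17.

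**Figure D1:**
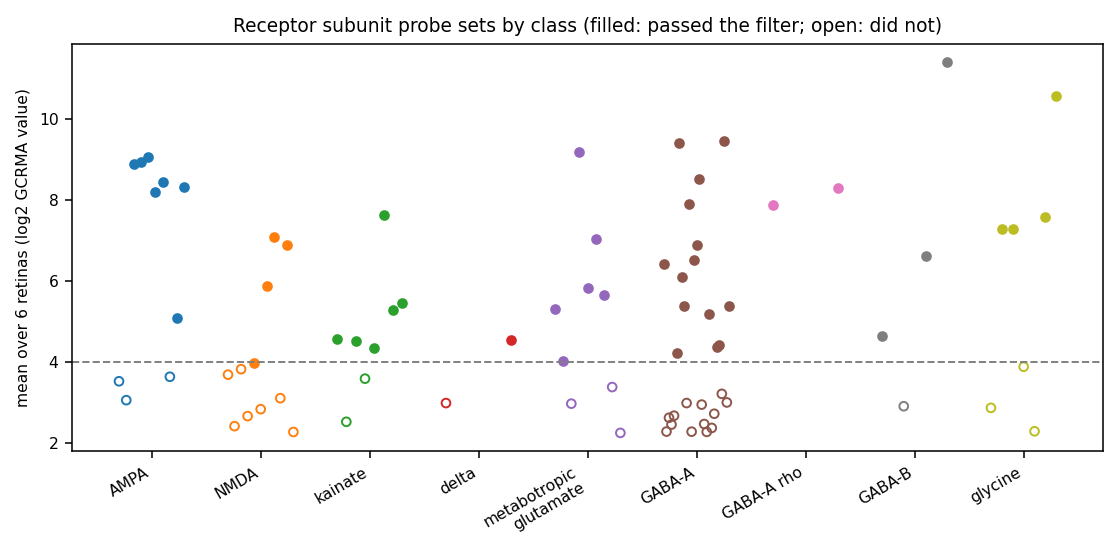
Mean log2 GCRMA value over 6 retinas of each of the 80 receptor probe sets, grouped by receptor class, with filled points for the 47 that passed the filter, open points for the 33 that did not, and a dashed line at 4. Levels of different probe sets depend on their probes and are not comparable between genes.

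No receptor probe set passed the test of the ages over the whole array. At an adjusted p under 0.05 (limma, Benjamini-Hochberg) 0 of 47 were called, against a background of 0.00477% of 20973 probe sets, and the smallest adjusted p was 0.197. With an unadjusted limma p under 0.05 stood 6, or 12.8%, beside 14.9% of all probe sets. Of those 6, 5 were higher at 8 months (10.6%, against 4.63% of all probe sets) and 1 was lower (2.13%, against 10.3%). The values of the ages did not overlap in 11, or 23.4%, beside 21.8% of all probe sets, with 10 higher (background 6.89%) and 1 lower (background 14.9%). The 1 lower probe set, of Grin3a, is the same in both counts and passed the filter only through the younger retinas, so it supports no lower call.

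These counts moved with the scaling of the arrays. After quantile normalization or cyclic loess, 13 of the 47 receptor probe sets had an unadjusted limma p under 0.05, 12 higher and 1 lower, or 27.7%, and they were the same 13 under both. All probe sets then stood at 13.3% and 13.4%, with 1388 higher (6.62%) and 1403 lower after quantile normalization, against 971 and 2155 as deposited. The median difference of all measured probe sets was -0.04 as deposited and -0.0052 after quantile normalization (log2). With eye side as a covariate the difference rests on the 3 younger retinas and the 1 older left retina, which is lens-rich. It gave 2 below 0.05, both of them Gria2, beside 9.82% of all probe sets. No setting gave an adjusted p under 0.05 for any receptor probe set.

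Over the 31 measured genes, each read by its brightest probe set, 16 were higher and 15 lower at 8 months. Their median log2 difference was 0.0010, beside -0.06 over 11219 genes, of which 36.5% were higher. By class, the median was 0.33 for the glycine receptor (3 of 3 higher), 0.23 for kainate (4 of 5), 0.09 for rho (2 of 2), 0.07 for metabotropic glutamate (3 of 5), -0.02 for GABA-A (2 of 7), -0.03 for AMPA (2 of 4) and -0.10 for NMDA receptors (0 of 3). The NMDA genes and the 15 lower genes include Grin3a, which passed the filter only through the younger retinas. Grid1 and Gabbr1, alone in their classes, differed by -0.10 and -0.08. These medians are descriptions of few genes each, and those of AMPA, NMDA, kainate, GABA-A, rho and GABA-B receptors changed sign in at least 1 of the alternatives run. In whole retinas, fewer cells of a type and less RNA per cell cannot be told apart.

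Most measured probe sets had narrow intervals. The 95% interval of the difference (limma) lay within 1.5-fold in both directions for 34 of the 47 probe sets, excluded a rise of that size in 39 and a fall in 42, and had a median half-width of 0.285 on the log2 scale. These intervals are not adjusted for the number of probe sets. Because GCRMA compresses dim signals, those of probe sets near the filter may be too narrow for the change in RNA. The measured difference exceeded 1.5-fold in 1 probe set, of Gria2. The median SD of the receptor probe sets was 0.185 among the younger and 0.099 among the older retinas (log2), beside 0.144 and 0.109 over all probe sets.

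**Figure D2:**
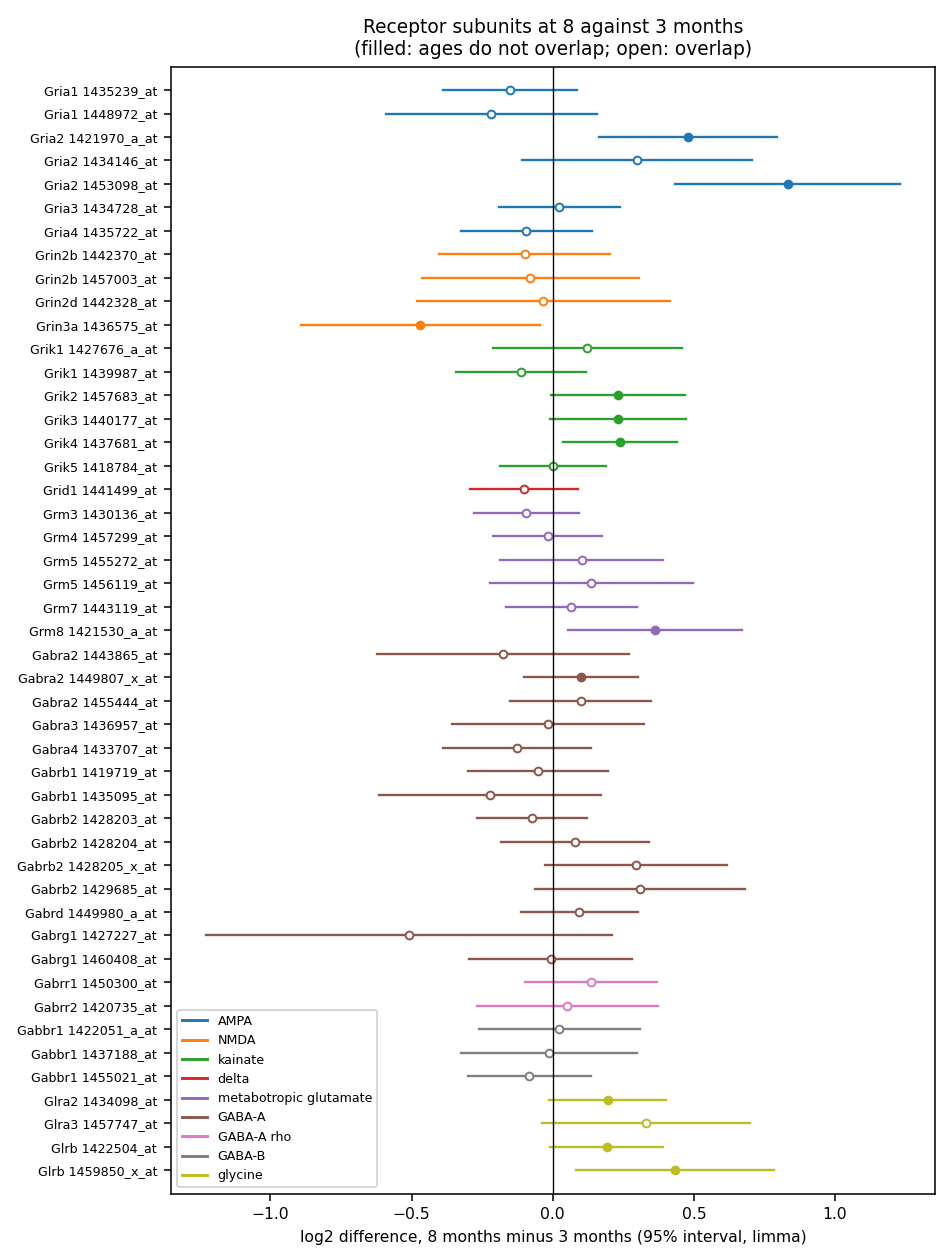
Log2 difference of 8 months minus 3 months with its 95% interval (limma, 3 retinas per age) for the 47 receptor probe sets that passed the filter, coloured by class, filled where the ages do not overlap. Gria2 1453098_at stands farthest to the right at 0.83, and the intervals of most others include 0.

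Gria1 to Gria4 encode GluA1 to GluA4, the pore-forming subunits of AMPA receptors. GluA2, the product of Gria2, makes the channel nearly impermeable to calcium once its RNA has been edited. Gria2 had the largest difference among the 47 measured receptor probe sets. Its probe set 1453098_at read 7.88, 8.29 and 7.60 (log2) in the younger retinas, numbered 1, 2 and 3, and 8.81, 8.78 and 8.67 in the older ones, listed likewise. All older retinas lay above all younger ones, and the older ones lay close together. The difference was 0.83 ± 0.17 (SE), or 1.78-fold (limma unadjusted p = 0.00167, adjusted p = 0.197).

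A second Gria2 probe set, 1421970_a_at, read 8.76, 8.78 and 8.40 at 3 months and 9.16, 9.26 and 8.96 at 8 months. Its ages did not overlap either, with 3-month retina 3 the lowest. The difference was 0.48 ± 0.13 (SE), or 1.39-fold (limma unadjusted p = 0.00863, adjusted p = 0.241). The brightest Gria2 probe set, 1434146_at, read 8.46, 9.16 and 8.79 at 3 months and 9.01, 9.11 and 9.19 at 8 months. Here 3-month retina 2 stood among the older retinas, and the difference was 0.30 ± 0.17 (SE; limma unadjusted p = 0.126). All 3 probe sets were thus higher in the older mean, by unequal amounts. Which parts of the transcript they read was not analysed here.

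The Gria2 differences were also read without the lens-rich retinas and by eye. Without 3-month retina 3 and 8-month retina 1, the 1453098_at difference was 0.65 (limma unadjusted p = 0.0124) and that of 1421970_a_at 0.34 (0.0552). In left eyes, which hold 1 older retina, they were 0.89 and 0.51. Leaving out any retina in turn gave 0.67 to 1.02 for 1453098_at, with limma adjusted p between 0.0985 (without 3-month retina 2) and 0.5 (without 8-month retina 2).

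The other AMPA subunits showed nothing of this size. Gria1 read 8.38, 8.17 and 8.29 at 3 months and 8.11, 8.27 and 8.01 at 8 months in 1435239_at, overlapping, with a difference of -0.15 (95% interval -0.39 to 0.09), and its dimmer probe set differed by -0.22. Gria3 read 9.01, 9.14 and 9.05 against 8.96, 9.15 and 9.15, a difference of 0.02 (-0.19 to 0.24). Gria4 read 8.59, 8.39 and 8.51 against 8.27, 8.51 and 8.44, a difference of -0.09 (-0.32 to 0.14). The intervals of Gria2 were 0.43 to 1.23 in 1453098_at, 0.16 to 0.79 in 1421970_a_at and -0.11 to 0.71 in 1434146_at, so that only the first lies wholly above those of the other 3 genes. No test of Gria2 against the others was made.

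**Figure D3:**
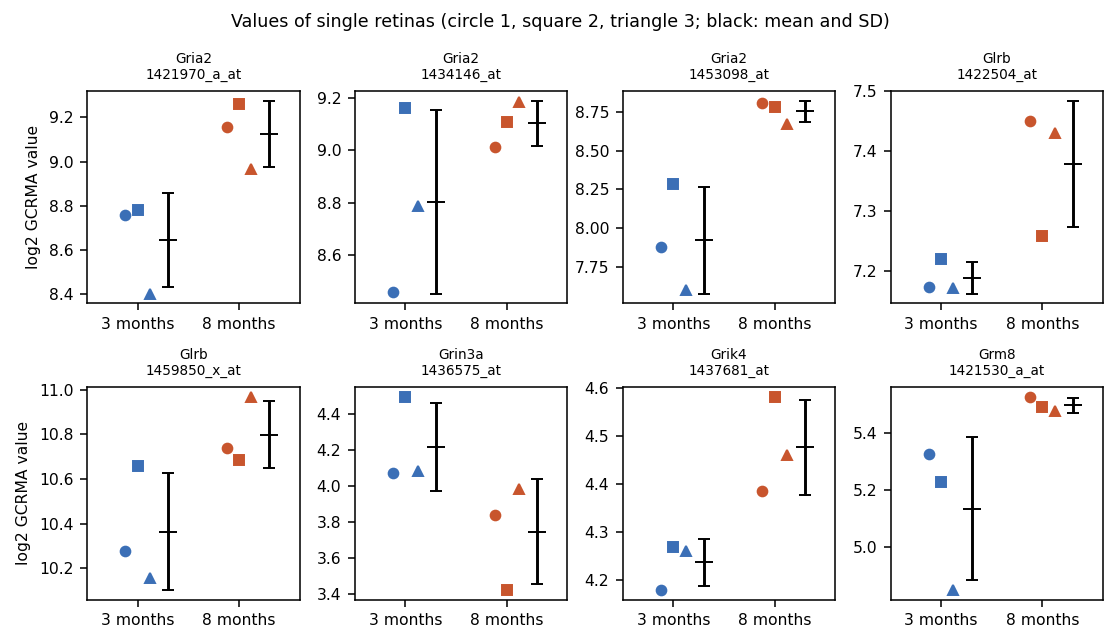
Log2 GCRMA values of single retinas for the 5 measured probe sets of Gria2 and Glrb and for the probe sets of Grin3a, Grik4 and Grm8, with blue for 3 months, red for 8 months, a symbol for each retina number and the mean and SD in black; the vertical scales differ. The ages do not overlap in 7 of the 8 panels, the exception being Gria2 1434146_at. Most panels were picked for an unadjusted limma p under 0.05 or for no overlap, so this count is no result. Over all probe sets the ages did not overlap in 21.8%. Grin3a passed the filter only through the younger retinas.

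Glycine receptors are built of alpha subunits, encoded by Glra1 to Glra3, which bind glycine, and the beta subunit, encoded by Glrb, which ties them to the scaffold protein gephyrin. All 4 measured probe sets of this class were higher at 8 months, 3 of them without overlap. Of all 20973 probe sets, 8522 were higher, and 6.89% were higher without overlap. The brighter Glrb probe set, 1459850_x_at, read 10.28, 10.66 and 10.16 at 3 months and 10.74, 10.69 and 10.97 at 8 months. The ages barely cleared each other, with retina 2 of both ages almost level. The difference was 0.43 ± 0.15 (SE), or 1.35-fold (limma unadjusted p = 0.0222, adjusted p = 0.283). It was 0.36 without the lens-rich retinas (limma unadjusted p = 0.104), and the unadjusted p was under 0.05 in 10 of 15 alternatives. The suffix marks probes that can match other transcripts.

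The specific Glrb probe set, 1422504_at, read 7.17, 7.22 and 7.17 at 3 months and 7.45, 7.26 and 7.43 at 8 months, a difference of 0.19 ± 0.08 (SE; limma unadjusted p = 0.0587). Glra2 read 7.23, 7.09 and 7.23 against 7.28, 7.40 and 7.45, a difference of 0.19 ± 0.09 (SE; limma unadjusted p = 0.0610). Both sets of older values lay above the younger ones, by little. Glra3 read 7.79, 7.18 and 7.33 at 3 months and 7.81, 7.78 and 7.70 at 8 months. Here 3-month retina 1 reached the older values, and the difference was 0.33 ± 0.16 (SE; limma unadjusted p = 0.0727). After quantile normalization the 4 had differences of 0.44, 0.27, 0.27 and 0.39, with limma adjusted p of 0.316 to 0.353. Amacrine cell genes, whose cells release glycine and carry its receptors, were higher in 5 of 7, with a summed linear level of 7585 to 8311 at 8 months and 7557 to 7614 at 3 months. The part of this in the glycine receptor values was not tested.

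Glrb and Gria2 lie next to each other on chromosome 3 in the RefSeq gene table of GRCm38.p6, with 0 protein-coding genes between them. All 5 of their measured probe sets were higher at 8 months, 4 without overlap. Of all 20973 probe sets, 8522 were higher, and 6.89% were higher without overlap. This neighbourhood was looked for after the values had been seen. Of the other members that adjoin, Gabrr1 and Gabrr2 on chromosome 4 had 2 of 2 probe sets higher, Gabrg1 and Gabra2 on chromosome 5 had 2 of 5 higher, and Gabra4 and Gabrb1, also there, had 0 of 3. The promoters of the 4 genes with a probe set higher at an unadjusted p under 0.05 are shown so that their letters can be compared. Each is the 250 bases before the gene's start from RefSeq, 5′ to 3′ on the gene's strand, build GRCm38.p6, with motif matches in capitals.
Gria2, chr3:80802836-80803085, minus strand: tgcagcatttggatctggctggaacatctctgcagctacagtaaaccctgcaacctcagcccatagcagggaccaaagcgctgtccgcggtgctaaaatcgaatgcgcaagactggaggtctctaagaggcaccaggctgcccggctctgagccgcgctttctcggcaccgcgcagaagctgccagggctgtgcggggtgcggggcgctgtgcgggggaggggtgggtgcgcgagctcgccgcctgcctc
Glrb, chr3:80913661-80913910, minus strand: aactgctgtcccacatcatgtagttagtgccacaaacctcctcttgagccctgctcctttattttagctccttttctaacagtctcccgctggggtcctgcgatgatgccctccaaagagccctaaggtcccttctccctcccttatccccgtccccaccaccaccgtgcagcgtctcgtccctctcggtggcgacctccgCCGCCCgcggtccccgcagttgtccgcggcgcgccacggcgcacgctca
Grm8, chr6:28135147-28135396, minus strand: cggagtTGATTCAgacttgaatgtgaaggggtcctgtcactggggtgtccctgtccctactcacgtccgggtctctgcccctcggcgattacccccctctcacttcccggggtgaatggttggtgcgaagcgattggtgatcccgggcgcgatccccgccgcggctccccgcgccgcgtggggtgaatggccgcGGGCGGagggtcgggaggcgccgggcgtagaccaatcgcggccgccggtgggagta
Grik4, chr9:42944372-42944621, minus strand: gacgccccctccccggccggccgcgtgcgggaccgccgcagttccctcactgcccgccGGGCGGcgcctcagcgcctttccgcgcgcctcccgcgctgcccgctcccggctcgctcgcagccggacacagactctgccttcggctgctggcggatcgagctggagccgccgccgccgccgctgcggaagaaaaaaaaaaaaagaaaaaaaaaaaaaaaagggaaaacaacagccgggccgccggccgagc
Grm8 has 3 starts in the table, and the most upstream is shown. Searched on both strands were TGACGTCA (the cyclic AMP response element), GGGCGG (the GC box), CACGTG (an E-box), TATAAA (the TATA box) and TGANTCA (the AP-1 site), none of which contains another. Glrb, Grm8 and Grik4 each held 1 GC box, Grm8 also 1 AP-1 match, and Gria2 none of the 5. The GC box was in 32.7% of 32851 promoters of the same length, and the AP-1 letters in 6.75%. Of the 39 members, 28 had a promoter entry, with 35 entries in all, and 19 of the 35 held a GC box. The 4 windows had GC contents of 64.8%, 62.4%, 68.4% and 69.6%, beside a median of 60.4% in the members' promoters and 52.4% in all.

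Kainate receptors are formed by GluK1 to GluK3 (Grik1 to Grik3), which can act alone, and GluK4 and GluK5 (Grik4, Grik5), which need one of the former. Grik4, close to the filter, read 4.18, 4.27 and 4.26 at 3 months and 4.39, 4.58 and 4.46 at 8 months, without overlap. The difference was 0.24 ± 0.09 (SE), or 1.18-fold (limma unadjusted p = 0.0260, adjusted p = 0.289). Adding eye side as a covariate gave 0.15 (limma unadjusted p = 0.266). Grik2 read 5.41, 5.25 and 5.36 against 5.59, 5.71 and 5.42, and Grik3 5.11, 5.22 and 5.21 against 5.23, 5.53 and 5.47. Neither overlapped, though in both the ages barely cleared each other, and each differed by 0.23 (limma unadjusted p = 0.0541 and 0.0577). Of all probe sets, 6.89% were higher without overlap. Among left eyes alone, which hold 1 older retina, the Grik3 difference was 0.05 and that of Grik2 0.25. Grik1, which OFF bipolar cells use, read 7.56, 7.67 and 7.83 against 7.65, 7.58 and 7.50, a difference of -0.11 (95% interval -0.34 to 0.12), and its dimmer probe set differed by 0.12. Grik5 was level, at 4.57 ± 0.07 and 4.57 ± 0.05 (SD, n = 3 each).

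NMDA receptors join GluN1 with GluN2 subunits, which bind glutamate, or GluN3 subunits, which bind glycine and lower the calcium flow. Grin3a, encoding GluN3A, had the 1 lower probe set that did not overlap between the ages. Its probe set 1436575_at read 4.07, 4.49 and 4.08 at 3 months and 3.83, 3.42 and 3.98 at 8 months. All older values lay below 4 and below all younger ones, so this probe set passed the filter through the younger retinas and its test in the filtered table is no support for a lower level. The difference was -0.47 ± 0.18 (SE), 1.38-fold lower (limma unadjusted p = 0.0341, adjusted p = 0.305). With no filter the unadjusted limma p was 0.0632, and it was under 0.05 in 8 of 15 alternatives. The difference was -0.31 without 8-month retina 2 (limma unadjusted p = 0.106) and -0.33 without 3-month retina 2 (0.112). The other 2 Grin3a probe sets did not pass the filter and differed by -0.02 and 0.02.

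Grin2b read 6.90, 7.11 and 7.38 at 3 months and 7.01, 7.07 and 7.01 at 8 months in 1442370_at. The older values lay inside the younger range, and the difference was -0.10 (95% interval -0.40 to 0.20). Its second measured probe set differed by -0.08, with 3-month retina 3 again highest, at 7.29. Grin2d read 5.82, 6.15 and 5.69 against 5.49, 6.11 and 5.97, a difference of -0.03 with an interval from -0.48 to 0.42, among the wider ones. Ganglion cell genes, which mark cells that carry NMDA receptors, were lower in 7 of 9, with a summed linear level of 4075 to 4337 at 8 months and 4313 to 5094 at 3 months, and their part in these values was not tested. Grid1, encoding the delta receptor GluD1 that binds cerebellins at synapses, read 4.61, 4.50 and 4.67 against 4.50, 4.51 and 4.46, a difference of -0.10 (95% interval -0.29 to 0.09).

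Of the metabotropic receptors, mGlu4, mGlu7 and mGlu8 damp transmitter release at axon terminals, mGlu2 and mGlu3 likewise lower cyclic AMP, and mGlu5 couples to calcium stores. Grm8 read 5.33, 5.23 and 4.85 at 3 months and 5.53, 5.49 and 5.48 at 8 months. The ages did not overlap, and 3-month retina 3 stood apart at the low end. The difference was 0.36 ± 0.13 (SE), or 1.29-fold (limma unadjusted p = 0.0270, adjusted p = 0.293). It was 0.22 without 3-month retina 3 (limma unadjusted p = 0.0417) and 0.21 without both lens-rich retinas (0.105).

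Grm7 read 9.09, 9.33 and 9.07 at 3 months and 9.16, 9.26 and 9.28 at 8 months, overlapping, with a difference of 0.07 (95% interval -0.17 to 0.30). Grm4 was level, at 5.66 ± 0.0047 and 5.64 ± 0.09 (SD, n = 3 each). The 2 Grm5 probe sets differed by 0.10 and 0.14 and Grm3 by -0.09, all with intervals that include 0.

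**Figure D4:**
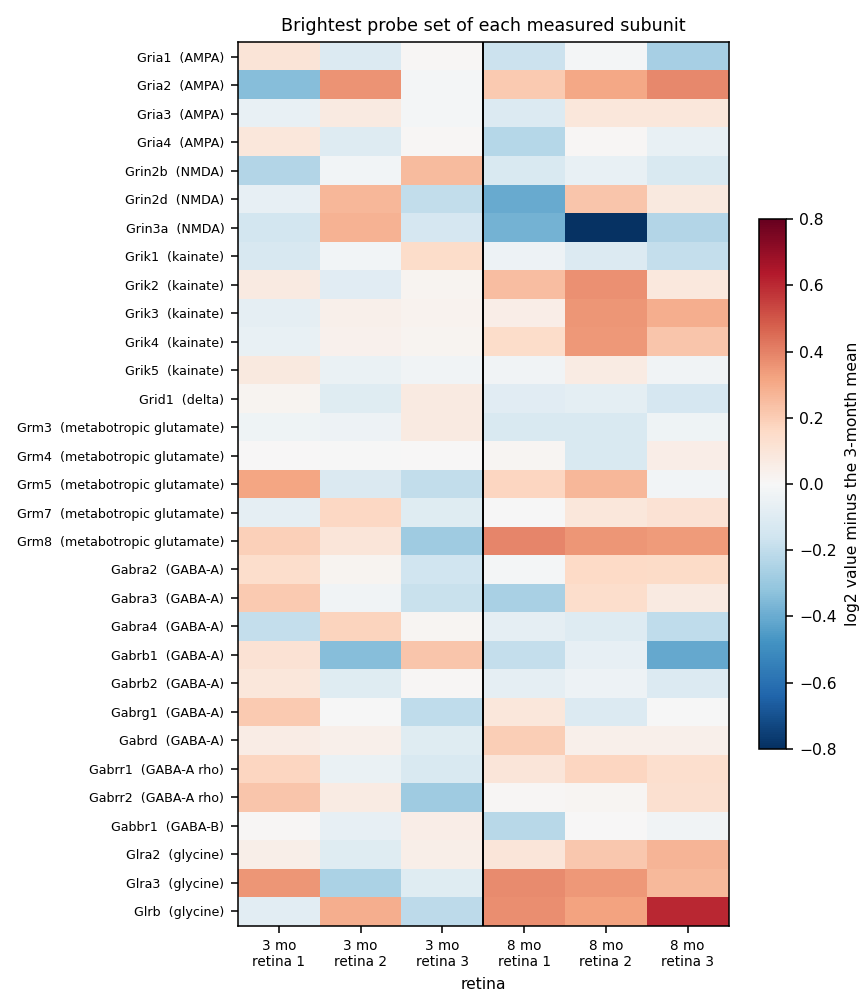
Log2 value of each retina minus the 3-month mean of the same probe set, for the brightest probe set of each of the 31 measured subunits, ordered by class; red is higher, blue lower, and the vertical line separates the ages. Gria2, Grik2 to Grik4, Grm8, Gabrd, Gabrr1 and the measured glycine receptor genes, among others, are red in all 3 older retinas. Grin3a, Gabra4, Gabrb1 and Gabrb2, among others, are blue in all 3.

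GABA-A receptors combine alpha, beta and gamma or delta subunits around a chloride channel. Among the 14 measured probe sets of this class 6 were higher, 8 lower and 0 had an unadjusted limma p under 0.05, beside 14.9% of all probe sets. After quantile normalization Gabrb2 1428205_x_at and 1429685_at had an unadjusted limma p of 0.0381 and 0.0451. The rest of this class stayed above 0.05 there. Gabra2, encoding an alpha subunit, read 9.54, 9.43 and 9.24 at 3 months and 9.39, 9.57 and 9.56 at 8 months in its brightest probe set, overlapping, with a difference of 0.10 (95% interval -0.15 to 0.35). A less specific Gabra2 probe set near the filter also differed by 0.10 with ages that just cleared each other, and the remaining one differed by -0.18. Gabra3 and Gabra4 differed by -0.02 and -0.13, Gabrd, encoding the delta subunit of receptors outside synapses, by 0.09, and the 2 Gabrb1 probe sets by -0.22 and -0.05.

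Probe sets of 1 gene did not move alike. Those of Gabrb2, encoding a beta subunit, differed by -0.07 in the brightest, 1428203_at, and by 0.08, 0.29 and 0.31 in the others. The last of these, 1429685_at, read 8.11, 7.59 and 7.57 at 3 months and 8.14, 8.11 and 7.95 at 8 months, with 3-month retina 1 among the older ones (limma unadjusted p = 0.0905, and 0.0451 after quantile normalization). Gabrg1, encoding a gamma subunit, differed by -0.01 in 1460408_at and by -0.51 in 1427227_at. The latter read 5.04, 4.45 and 3.95 against 4.35, 4.02 and 3.53, so that both ages were widely spread and overlapped (limma unadjusted p = 0.139).

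The rho subunits form the slow GABA channels of bipolar cell terminals. Gabrr1 read 8.42, 8.19 and 8.12 at 3 months and 8.34, 8.42 and 8.38 at 8 months, a difference of 0.13 (95% interval -0.10 to 0.37). Gabrr2 read 8.07, 7.92 and 7.57 against 7.86, 7.87 and 7.98, a difference of 0.05 (-0.27 to 0.37). In both genes 3-month retina 1 was the highest and retina 3 the lowest of the younger ones. Bipolar cell genes were higher in 3 of 6 and lower in 3, with a summed linear level of 4929 to 5110 at 8 months and 4905 to 5180 at 3 months. Gabbr1, the subunit of the GABA-B receptor that binds GABA, read 11.46, 11.38 and 11.50 against 11.22, 11.45 and 11.42, a difference of -0.08 (-0.30 to 0.13), and its 2 dimmer measured probe sets differed by -0.01 and 0.02.

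Proteins that traffic, anchor or modulate these receptors were read from a separate list of 45 genes, 36 of them measured by 57 probe sets. None passed after adjustment, and 7 probe sets, or 12.3%, had an unadjusted limma p under 0.05, 1 higher and 6 lower, beside 14.9% of all. By gene, 9 were higher and 27 lower, with a median log2 difference of -0.06, beside -0.06 over all genes. Dlg4, encoding the scaffold PSD-95 of glutamate synapses, differed by -0.51 ± 0.14 in 1460261_at (SE; limma unadjusted p = 0.00693, adjusted p = 0.229) and by -0.13 in its second probe set. Clptm1, which retains GABA-A receptors inside the cell, differed by -0.43 ± 0.13 (SE; limma unadjusted p = 0.0134). Gabarapl1, of the GABARAP family, differed by -0.30 ± 0.10 in the less specific 1416419_s_at (SE; limma unadjusted p = 0.0196). Its brighter probe set, 1416418_at, differed by -0.16, with ages that overlapped (limma unadjusted p = 0.173). Homer1, a scaffold of mGlu5, differed by 0.36 ± 0.13 in 1436387_at (SE; limma unadjusted p = 0.0259) but by 0.11 and -0.13 in the other measured ones.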

How the data were processed

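Messenger RNA of 6 whole retinas was read on Affymetrix mouse arrays after amplification and biotin labelling, per the labels' protocols. The authors deposited 1 value per probe set and retina. Per the submitters' processing notes, R 1.9.0 and GCRMA 1.1.0 were used. The log2 scale was inferred from the range of the deposited values, and the GCRMA options are not given in the sources used here. Because GCRMA compresses dim signals near its lower limit, a change in a weakly expressed gene may be too small. Genes were named from the platform annotation where it gave 1 symbol. After 64 controls were left out of 45101 probe sets, 20973 passed the filter. The test was limma 3.58.1 (lmFit, eBayes; R 4.3.3), two-sided, without covariates, adjusted over all of them. The code was tested on simulated data. An exact permutation test of 3 against 3 cannot go below 0.1 and was not used. The number of arrays limits precision.

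The members, lists and alternatives were chosen with earlier results of these data known. Values of every retina are given for measured probe sets at an unadjusted p under 0.05 or without overlap and differing by 0.3 or more, and for the brightest of each class. Some others were added after their values were seen. From the list of associated proteins up to 4 genes of smallest p are named. Alternatives were filters, scalings, eye side, a replicate block, a variance trend, specific probe sets and left-out retinas. Same-numbered retinas did not deviate together, so the numbers pair nothing.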

Additional observations from a re-analysis of the deposited data

How the results depend on the processing

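In 16 alternatives 0 receptor probe sets had an adjusted p under 0.05 (limma), as with all retinas. The count at an unadjusted p under 0.05, 6 as reported, was 3 with the filter at 6 (18.7% of all probe sets), 13 with quantile normalization (13.3%) and 13 with cyclic loess (13.4%), 2 with eye side as a covariate (9.82%) and 9 with no filter (9.23%). It was 4 to 9 when 1 retina was left out, with 4 without 8-month retina 2 or 3 (9.21% and 12.5%) and 9 without 3-month retina 1 (12.2%). The share of all probe sets moved too, but not always with the receptors. After quantile normalization or cyclic loess the receptor share rose from 12.8% to 27.7%, while that of all fell from 14.9% to 13.3% and 13.4%. With other filters the number of receptor probe sets tested also differed. As 0 passed after adjustment in every setting, these counts alone cannot show a change in the receptors. Only 0.00477% of all probe sets passed as deposited, so they cannot show its absence either. The count of associated probe sets, 7, was 4 with eye side (9.82% of all probe sets) and 3 without the lens-rich retinas (7.47%). With 1 retina left out it was 3 to 9, beside 9.21% to 19.6% of all. It was lowest without 8-month retina 1 (9.83%) or 2 (9.21%) and highest without 3-month retina 2 (19.6%). The median over receptor genes was 0.0414 after cyclic loess and -0.0132 to 0.0723 with 1 left out. With eye side the class medians were -0.14 for AMPA, -0.38 for NMDA, 0.0502 for kainate and -0.22 for GABA-B. That NMDA value is the one of Grin3a, which passed the filter only through the younger retinas, so it supports no lower class level. The kainate median was -0.11 at a filter of 6, which leaves Grik1 alone, and 0.17 to 0.24 with 1 retina left out. That of GABA-A was -0.1056 to 0.0869 and that of glycine 0.20 to 0.39 with 1 left out. The glycine median was 0.19 with specific probe sets only, and the GABA-B median 0.0143 without the lens-rich retinas. The AMPA median was 0.0066 after quantile normalization, 0.0198 after cyclic loess, 0.0317 without 8-month retina 1 and 0.03 without the lens-rich retinas. The NMDA median was -0.2156 without 3-month retina 1 and 0.0377 without the lens-rich retinas, and that of rho 0.1919 without 3-month retina 1 and -0.0089 without 3-month retina 3. The metabotropic median was 0.0194 to 0.1025 with 1 left out, and that of GABA-B -0.0129 without 8-month retina 1. Small differences changed sign. With eye side, Gria3 was at -0.11, Grm7 at -0.0051 and Gabra2 at -0.0149. With 1 retina left out Gria3 ranged from -0.0099 to 0.0886 and Grin2b from -0.2156 to 0.0274. Without the lens-rich retinas Grin2b was at 0.0377 and Gabbr1 at 0.0143. Beyond fewer genes or retinas, the cause was not tested. Gria2 1421970_a_at and 1453098_at, Glrb 1459850_x_at, Grm8, Grik4 and Grin3a 1436575_at kept their direction in the alternatives run for them. Correlations of same-numbered retinas were -0.141, 0.064 and -0.283. The replicate block gave a receptor count of 6 at an unadjusted p under 0.05, beside 13% of all probe sets. Grin3a was not among those 6, with a limma unadjusted p of 0.0682 there. Weak signal limits the genes near the filter.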
